A study of Danio rerio with 8 samples.

Results

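The microtubule motors of the zebrafish retina, namely the kinesins with their light chains, the cytoplasmic dyneins and dynactin, were followed through 40 genes. They were chosen by name alone, as genes whose symbol carries the stem of a kinesin, a kinesin light chain, a dynein chain or a dynactin subunit. The array held a matched probe for 40 such genes, through 86 probes, among 13143 genes with a symbol and 43601 probes tested. The reference table lists 76 symbols of this kind, and the 36 with no matched probe were not analysed here. By role, the 40 genes were 8 mitotic kinesins, 11 transport kinesins, 2 other kinesins and 19 subunits of cytoplasmic dynein and dynactin.

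Retinal RNA of wild type adult zebrafish, 9 to 12 months old, was hybridised to 8 one-colour Agilent arrays. In the 4 crush pools the right optic nerve had been crushed and the right retina was taken 3 days later, and the 4 control pools came from unoperated fish. Each pool combined the retinae of 4 fish of either sex, so that differences between single fish are not seen, and a whole retina was taken with all of its cell types. The median spot intensity lay between 153 and 194.5 and the local background between 17 and 19. The scanner software read 72.5% to 84.0% of each array's spots as well above background and none as saturated. The highest share was that of control pool 2, which had 382 outlier spots, against 6 to 21 on the other arrays. Correlations of the arrays lay between 0.979 and 0.991 within a group and between 0.973 and 0.986 across groups (Pearson's r across probes, which are not independent). Each group had a slide of its own, so that slide and group cannot be told apart. The labelled tissue carried its markers, with 18 genes of rods and cones measured at mean log2 signals from 10.4 to 18.6.

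Kinesins and dynein are the motors that use ATP to walk along microtubules. Most kinesins move towards the plus end, which in an axon points to the terminal, whereas cytoplasmic dynein, with its activator dynactin, moves towards the minus end and brings cargo back to the cell body. Another set of kinesins builds the mitotic spindle, moves chromosomes and cuts the daughter cells apart, and is made mostly by dividing cells. The roles given below are those known from mammalian cells, mostly human, unless another animal is named. A severed optic nerve axon of the zebrafish regrows, and its proteins and organelles travel by these motors.

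After crush, 5 of the 40 genes rose and none fell. The 5 were the mitotic kinesins kif11, kif4, kif23 and kif2c and the kinesin-2 subunit kif3cb. A gene was read from its brightest probe and passed when it changed at least 1.5-fold and its limma p, adjusted over all probes tested, was 0.05 or less. Over all 13143 genes, 2.47% passed upwards and 0.883% downwards. Without regard to the thresholds, every crush pool lay above every control pool in 10 of the 40 genes and below in 1, where the shares over all genes were 10.3% and 6.53%. At an unadjusted p under 0.05, 14 of the 40 were higher and 2 lower. The share of all genes at this limit was not counted, so this count and those like it below have no background beside them. The log2 fold change was positive in 31 of 40, with a median of 0.17, and over all genes it was positive in 6752 of 13143, with a median of 0.01. The plot of fold changes by role shows where these values lie.

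**Figure D1:**
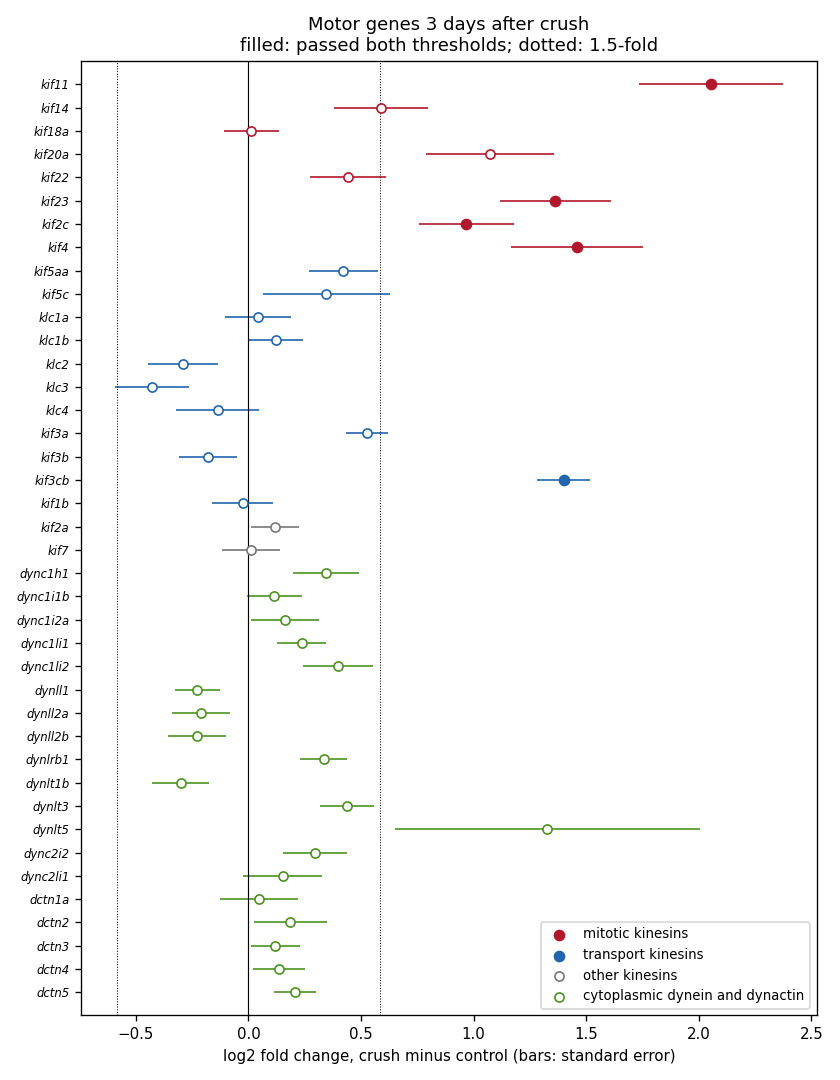
Log2 fold change of each of the 40 motor genes, crush minus control, for its brightest probe, with the standard error as a bar and 4 pools in each group. Filled points passed both thresholds, the dotted lines mark 1.5-fold, and the 5 filled points are 4 mitotic kinesins and kif3cb, all to the right.

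Most of the genes that rose were mitotic kinesins. Of 8 genes, 4 rose and none fell, all 8 had a positive fold change, and the median was 1.02 on the log2 scale, with a range from 0.01 to 2.05. At an unadjusted p under 0.05, 7 of the 8 were higher. In 5 of the 8, every crush pool lay above every control pool, where the share over all genes was 10.3%. The mean log2 signals ran from 4.79 to 7.92, and kif2c, kif14 and kif20a were not well above background on all arrays.

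kif11, whose product (Eg5) slides the spindle poles apart, changed most. Its normalised log2 signal was 6.11, 5.23, 5.29 and 6.29 in control pools 1 to 4 and 7.47, 7.71, 7.45 and 8.52 in crush pools 1 to 4. Every crush pool lay above the highest control pool, and crush pool 4 lay well above the other crush pools. The group means were 5.73 ± 0.55 and 7.79 ± 0.50 (SD, n = 4 each), a 4.15-fold rise (log2 fold change 2.05, SE 0.32, limma adjusted p = 0.0141).

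kif4, a chromokinesin that works on chromosome arms and on the midzone of the spindle, was measured at 6.67, 5.72, 5.67 and 6.76 in the control pools and at 7.48, 7.82, 7.31 and 8.04 in the crush pools. The groups did not overlap, and control pools 1 and 4 lay well above control pools 2 and 3. Its signal rose 2.75-fold, from 6.20 ± 0.59 to 7.66 ± 0.33 (log2 fold change 1.46, SE 0.29, limma adjusted p = 0.0365).

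kif23 is the motor of centralspindlin, the complex that organises the cleavage furrow and the midbody. It stood at 6.66, 6.57, 6.25 and 7.13 in the control pools and at 7.84, 8.35, 7.50 and 8.37 in the crush pools, again with no overlap, and crush pool 3 was the lowest of the crushed. The rise was 2.57-fold (log2 fold change 1.36, SE 0.25, limma adjusted p = 0.0251).

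kif2c (MCAK), which does not walk but takes microtubules apart at the centromere, was dim. It gave 5.29, 4.85, 4.50 and 5.33 in the control pools, where 2 of the 4 arrays read it as well above background, and 5.89, 6.11, 5.64 and 6.20 in the crush pools, where all 4 did. The groups were separate but close, with control pool 4 just under crush pool 3. The fold change was 1.96 (log2 fold change 0.97, SE 0.21, limma adjusted p = 0.0477), near the limit for p.

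The other 4 mitotic kinesins did not pass. kif20a, a midzone kinesin that carries the chromosomal passenger complex, was at 4.48, 3.54, 4.13 and 4.87 in the control pools, none of them well above background, and at 5.15, 5.54, 4.95 and 5.66 in the crush pools, all of them above. No crush pool overlapped a control pool, and the estimated difference was 2.10-fold (log2 fold change 1.07, SE 0.28, limma adjusted p = 0.0841). A second probe of kif20a with a similar mean log2 signal (4.59 against 4.79) had a log2 fold change of 0.02 (adjusted p = 0.963). kif14, a midbody kinesin, had no value in control pool 2, where its spot was marked as an outlier, and was at 5.20, 4.98 and 5.43 in the other control pools and at 5.42, 5.91, 5.64 and 6.21 in the crush pools (log2 fold change 0.59, SE 0.21, limma adjusted p = 0.180). Its groups touched, with crush pool 1 just under control pool 4.

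kif22, a second chromokinesin, was at 8.01, 7.27, 7.87 and 7.64 in the control pools and at 8.26, 8.18, 7.95 and 8.17 in the crush pools (log2 fold change 0.44, limma adjusted p = 0.197). Crush pool 3 lay within the range of the control pools. kif18a, which damps the movements of chromosomes as they align, had a log2 fold change of 0.01 (SE 0.12, limma adjusted p = 0.973). The pools of the mitotic kinesins are plotted gene by gene.

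**Figure D2:**
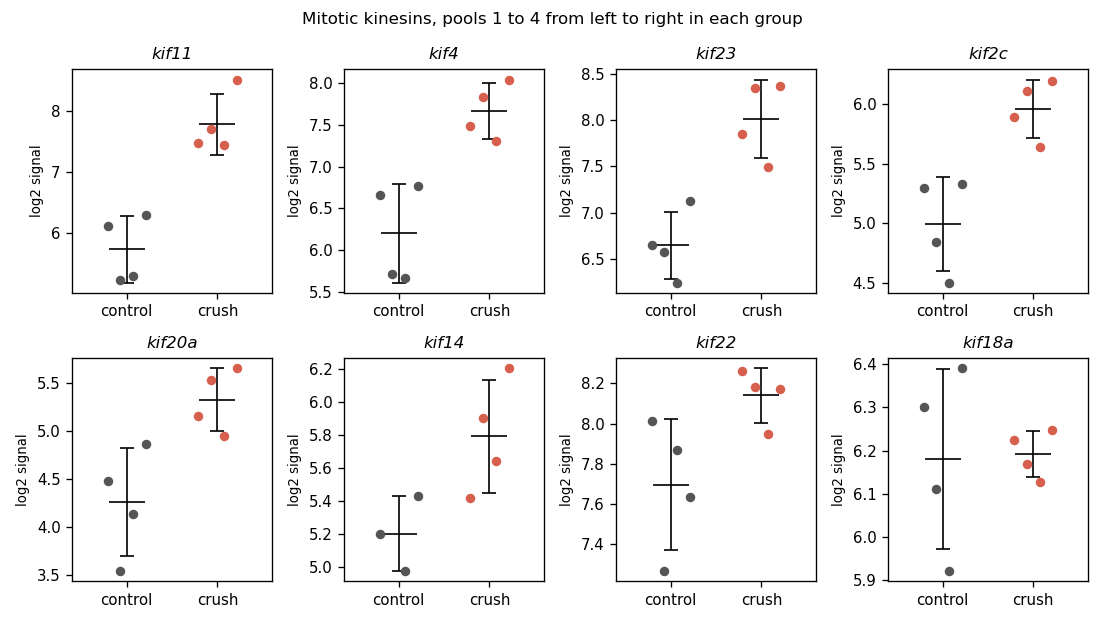
Normalised log2 signal of the 8 mitotic kinesins in each pool, brightest probe, with the group mean and SD as lines and a separate axis for each gene. The groups did not overlap for kif11, kif4, kif23, kif2c and kif20a, and kif14 has 3 control values because 1 spot was an outlier.

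The order of the pools was similar in several mitotic kinesins. The mean difference of the 8 genes from their control means was 0.23, -0.35, -0.29 and 0.37 log2 units in control pools 1 to 4 and 0.85, 1.11, 0.71 and 1.31 in crush pools 1 to 4. Thus control pools 1 and 4 were the higher controls, and crush pool 4 was the highest of all, holding the highest value of 6 of the 8 genes. Crush pool 4 was also the highest in 7 of 9 markers of dividing cells, 7 of 11 markers of myeloid cells and 18 of 29 partners of the mitotic kinesins. The myeloid markers had a summed linear signal of 32064 to 48539 in the control pools and 34698 to 52581 in the crush pools, none of 11 passed (3 higher and 0 lower at an unadjusted p under 0.05 in limma), and their part in the mitotic signal was not tested.

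Markers of dividing cells, mostly subunits of the replicative helicase, were listed as well. Of 9 measured, 2 rose and none fell, where 2.47% of all genes passed upwards. The 2 were mcm6 (log2 fold change 1.38, limma adjusted p = 0.0441) and mcm7 (0.87, adjusted p = 0.00828). All 9 had a positive fold change, and the median was 0.96. Their summed linear signal ran from 6505 to 8661 in the control pools and from 10407 to 13260 in the crush pools. The mitotic kinesins summed to 449 to 722 and to 961 to 1523, respectively, and neither sum overlapped between the groups. In whole retinae, a change in the number of cells of a type and a change in RNA per cell cannot be told apart.

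The proteins that work with these kinesins on the spindle and in cytokinesis were listed separately, and 29 of 38 were measured. In limma, 5 rose and none fell, where 2.47% of all genes passed upwards. A positive fold change was found in 24 of 29, against 6752 of 13143 genes in all, and the median was 0.74. At an unadjusted p under 0.05, 19 were higher and 1 lower. The largest of the 5 changes was that of ccnb1, the cyclin of mitotic entry, at 3.44-fold (log2 fold change 1.78, SE 0.28, limma adjusted p = 0.0146). Its control pools stood at 6.73, 5.83, 6.13 and 7.01 and its crush pools at 7.93, 8.37, 7.93 and 8.63, with no overlap, with control pools 1 and 4 the higher controls and crush pool 4 the highest, as for kif11. anln, the anillin scaffold of the cleavage furrow, rose 2.56-fold (adjusted p = 0.0158), and aurkb, the kinase of the chromosomal passenger complex, rose 2.19-fold (adjusted p = 0.0396). cdk1, the mitotic kinase, rose 1.99-fold (adjusted p = 0.0183), and prc1b, a bundler of midzone microtubules to which KIF4 binds, rose 1.95-fold (adjusted p = 0.0269), from a level above background on 1 of 4 control arrays.

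Among the transport kinesins, 1 of 11 rose and none fell. Their median log2 fold change was 0.04, 6 of the 11 were positive, and the range ran from -0.43 to 1.40. At an unadjusted p under 0.05, 3 were higher and 1 lower. The mean difference from the control means was 0.01, -0.04, -0.03 and 0.07 in the control pools and 0.30, 0.27, 0.11 and -0.03 in the crush pools, so that crush pool 4, the highest in the mitotic kinesins, lay within the controls here. These means include kif3cb, whose own differences in the crush pools were 1.40, 1.53, 1.44 and 1.22, so they do not describe the group without it. The 11 genes also pool 5 light chain genes, which do not walk, with the motor chains. The median log2 fold change was -0.14 for the light chains, 0.38 for the 2 kinesin-1 heavy chains and 0.53 for the 3 kinesin-2 genes. The single kinesin-3 gene had -0.03, so the median of 0.04 does not describe the motor chains alone. Of the 11 genes, the one that rose belonged to kinesin-2.

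Kinesin-2 carries cargo along axons and into cilia, as a motor of a KIF3A chain with either KIF3B or KIF3C, and it binds cargo through the adaptor KAP3. KIF3C is enriched in neurons. kif3cb, a zebrafish gene for the KIF3C chain, was at 9.28, 9.03, 9.01 and 9.27 in the control pools and at 10.55, 10.68, 10.59 and 10.37 in the crush pools. The gap between the groups was several times the spread within either of them. It rose 2.64-fold, from 9.15 ± 0.15 to 10.55 ± 0.13 (SD, n = 4 each; log2 fold change 1.40, SE 0.12, limma adjusted p = 0.000931), the smallest adjusted p of the 40 genes. A second, dimmer probe of kif3cb rose as well (log2 fold change 1.18, SE 0.15, limma adjusted p = 0.00657).

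kif3a, the shared chain, was at 11.78, 11.85, 11.81 and 11.96 in the control pools and at 12.40, 12.33, 12.46 and 12.32 in the crush pools, with no overlap. Its change was 1.44-fold (log2 fold change 0.53, SE 0.09, limma adjusted p = 0.0234), which passed the limit for p but not that for the fold. Of its 2 other probes, 1 passed both (log2 fold change 0.60, adjusted p = 0.0313) and 1 did not (0.42, adjusted p = 0.136). Scaling the arrays to their medians or using the scanner software's processed signal also brought the brightest probe past the fold threshold, with log2 fold changes of 0.66 and 0.61.

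kif3b, the other partner of KIF3A, was at 7.71, 7.41, 7.58 and 7.28 in the control pools and at 7.25, 7.53, 7.24 and 7.23 in the crush pools (log2 fold change -0.18, SE 0.13, limma adjusted p = 0.482). The groups overlapped. Within each array, kif3cb changed by 0.87 log2 units more than kif3a and by 1.58 more than kif3b (exact two-sided permutation p = 0.0286 for each, not adjusted over the 2 tests). That is the smallest p that 70 relabellings of the pools can give. These pairs were singled out after their values had been seen, so the p-values describe them and are no independent test.

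The adaptor of kinesin-2 has a pair of genes in zebrafish. kifap3a was at 9.08, 9.51, 9.71 and 9.96 in the control pools and at 10.52, 10.62, 10.69 and 10.28 in the crush pools, and rose 1.95-fold with no overlap (log2 fold change 0.96, SE 0.19, limma adjusted p = 0.0348). Control pool 1 was the lowest by some way. kifap3b was at 12.63, 12.65, 12.82 and 12.96 and at 13.02, 13.26, 13.26 and 13.02, separate as well, but with a log2 fold change of 0.37 (SE 0.12, limma adjusted p = 0.139) it did not pass. kifap3a was the only one of 32 measured motor adaptors and dynein regulators, of 52 listed, to pass, and the median of the 32 was -0.06. Over all 13143 genes 2.47% passed upwards, so 1 of 32 is near the share over all genes.

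**Figure D3:**
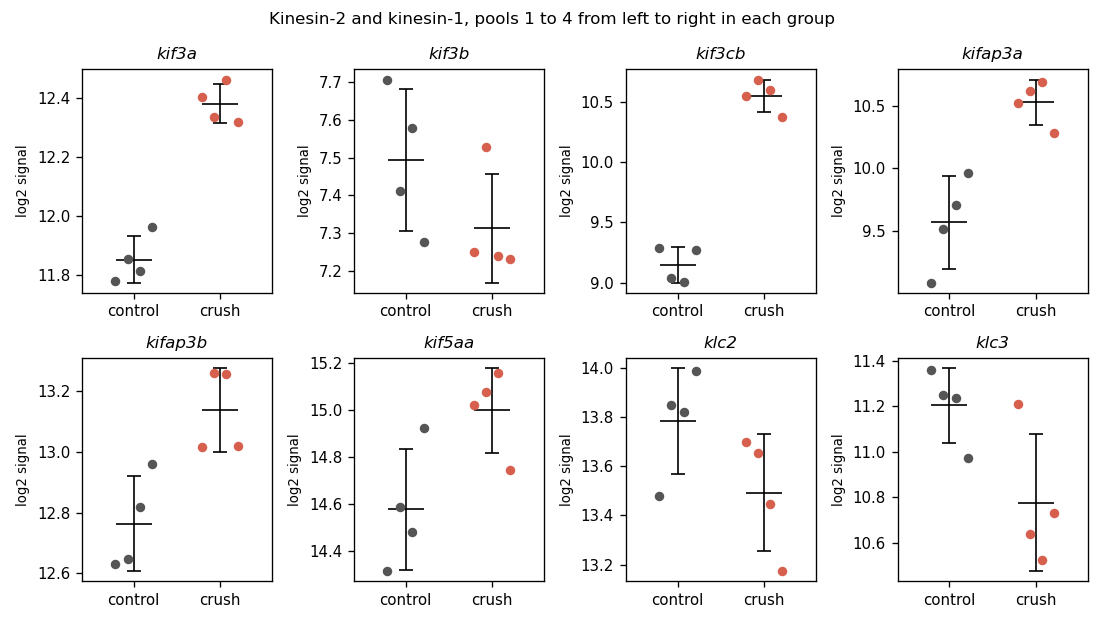
Normalised log2 signal in each pool for the kinesin-2 genes kif3a, kif3b and kif3cb, the adaptor genes kifap3a and kifap3b, and the kinesin-1 genes kif5aa, klc2 and klc3, with the group mean and SD and a separate axis for each gene. The groups were separate for kif3a, kif3cb, kifap3a and kifap3b and overlapped for the rest.

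Kinesin-1, the main motor of fast transport out into the axon, has heavy chains that walk and light chains that hold cargo. Of its heavy chains, kif5aa, a gene for the KIF5A chain of neurons, was at 14.31, 14.58, 14.48 and 14.92 in the control pools and 15.02, 15.07, 15.16 and 14.74 in the crush pools. Crush pool 4 lay below control pool 4, and the log2 fold change of 0.42 (SE 0.15, limma adjusted p = 0.184) did not pass. For kif5c no control array and 3 of 4 crush arrays read well above background, and the groups overlapped (log2 fold change 0.35, SE 0.28, limma adjusted p = 0.540).

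None of the 5 light chain genes passed, with klc3 alone at an unadjusted p under 0.05, and their log2 fold changes ran from -0.43 to 0.12 with a median of -0.14. klc3 had the lowest, at 11.36, 11.25, 11.24 and 10.97 in the control pools and 11.21, 10.64, 10.52 and 10.73 in the crush pools (log2 fold change -0.43, SE 0.17, limma adjusted p = 0.202). Crush pool 1 lay among the controls. klc2 had a log2 fold change of -0.29 (adjusted p = 0.351), klc4 of -0.14, klc1a of 0.04 and klc1b of 0.12. For klc1b a dimmer probe read 0.56, with an adjusted p of 0.0546, where the brightest gave 0.12 and another 0.01.

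The last transport kinesin was kif1b, of the kinesin-3 family, which carries synaptic vesicle precursors and mitochondria, with a log2 fold change of -0.03 (SE 0.14, limma adjusted p = 0.940). Its sign turned when control pool 3, control pool 4 or crush pool 4 was left out. Kinesins outside both roles did not pass either. kif2a, a microtubule depolymerase that trims axon branches in mice, had a log2 fold change of 0.12 (adjusted p = 0.582), and kif7, a kinesin of Hedgehog signalling at the tip of the cilium, of 0.01 (adjusted p = 0.978).

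Retinal ganglion cells, whose axons form the optic nerve, are the retinal neurons cut by the crush. Of 12 of their markers measured, 5 fell (isl2b, pou4f2, rbpms2a, rbpms2b and pou4f3) and 2 rose (elavl4 and nefma). The shares over all genes were 0.883% downwards and 2.47% upwards. The median log2 fold change of the 12 was -0.49. The summed linear signal of the 12 was 96076 to 127125 in the control pools and 64932 to 72341 in the crush pools. The summed signal of the 3 kinesin-2 genes went the other way, from 4300 to 4755 in the control pools to between 6582 and 7337 in the crush pools. Most of that sum came from kif3a, whose brightest probe did not pass, and kif3b had a log2 fold change of -0.18. How the ganglion cell markers bear on the transport kinesins was not tested.

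No subunit of cytoplasmic dynein or dynactin passed. Of 19 genes, 15 had a positive log2 fold change, the median was 0.16, and the lowest adjusted p was 0.0914. At an unadjusted p under 0.05, 4 were higher and 1 lower. The mean difference from the control means was -0.15, 0.04, -0.00 and 0.11 in the control pools and 0.16, 0.18, 0.23 and 0.17 in the crush pools, which were thus all above the controls, although by little.

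Dynein-1 is the dynein of the cytoplasm, and its larger chains shared the sign of their change. dync1h1, the heavy chain with the motor itself, had a log2 fold change of 0.34 (SE 0.15, limma adjusted p = 0.242), and its dimmer probes had 0.25 and 0.06. The light intermediate chains, which bind the cargo adaptors, had 0.40 (dync1li2, SE 0.16, adjusted p = 0.211) and 0.24 (dync1li1, adjusted p = 0.273), and both other probes of dync1li2 were similar, at 0.47 and 0.46. The intermediate chains, which bind dynactin, had 0.16 (dync1i2a) and 0.11 (dync1i1b). The median of these 5 genes was 0.24.

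The light chains of dynein, small dimers held by the intermediate chains, went both ways. By its brightest probe, dynlt3, a Tctex-type chain, came closest to passing, at 11.999, 11.90, 11.74 and 12.06 in the control pools and 12.28, 12.47, 12.52 and 12.18 in the crush pools (log2 fold change 0.44, SE 0.12, limma adjusted p = 0.0914). A second probe of dynlt3 with a similar mean log2 signal (12.01 against 12.14) had 0.22 (adjusted p = 0.352), and there the groups overlapped. dynlrb1, a roadblock-type chain, was at 12.94, 13.02, 12.79 and 12.85 and at 13.26, 13.08, 13.31 and 13.29 (log2 fold change 0.33, SE 0.10, adjusted p = 0.125), and its second probe had 0.56 (adjusted p = 0.0674). At the brightest probe of both genes the groups were separate, but by less than the spread within either group.

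The LC8-type chains lay on the other side of 0. dynll1, which also serves as a hub for many proteins outside dynein, was at 12.46, 12.34, 12.30 and 12.19 in the control pools and at 12.16, 12.06, 12.001 and 12.15 in the crush pools (log2 fold change -0.23, SE 0.10, limma adjusted p = 0.261). It was the only one of the 40 genes in which every crush pool lay below every control pool. dynll2a and dynll2b had log2 fold changes of -0.21 and -0.23, and dynlt1b, a Tctex-type chain, of -0.30 (adjusted p = 0.239), with 0.05 at its other probe.

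dynlt5 had the largest fold change of the dynein genes and the widest spread. It was at 4.16, 6.19, 6.92 and 7.69 in the control pools and at 6.94, 7.35, 8.28 and 7.72 in the crush pools. Control pool 1 lay far below the rest, control pool 4 lay within the crush pools, and the log2 fold change of 1.33 (SE 0.68, limma adjusted p = 0.324) was smaller than the SD of the control pools, 1.51. It is counted here by its name, as a Tctex-type light chain. Without single pools the log2 fold change ran from 0.63 to 1.81 and never passed.

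Dynein-2 is the dynein of cilia, including those of photoreceptors, and its genes dync2i2 and dync2li1 had log2 fold changes of 0.29 (limma adjusted p = 0.298) and 0.15 (adjusted p = 0.678). The other probes of dync2i2 read -0.20 and 0.21, so that its sign depended on the probe. All 5 dynactin genes had small positive fold changes, between 0.05 and 0.21, with a median of 0.14. The lowest was that of dctn1a, whose product holds the microtubule, and the highest that of dctn5 of the pointed end (SE 0.09, limma adjusted p = 0.270), with all crush pools above all control pools. A second probe of dctn5 had 0.05 (adjusted p = 0.867), and there the groups overlapped. dctn2, the dynamitin of the shoulder, had 0.19, dctn3 of the shoulder 0.12 and dctn4 of the pointed end 0.14.

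**Figure D4:**
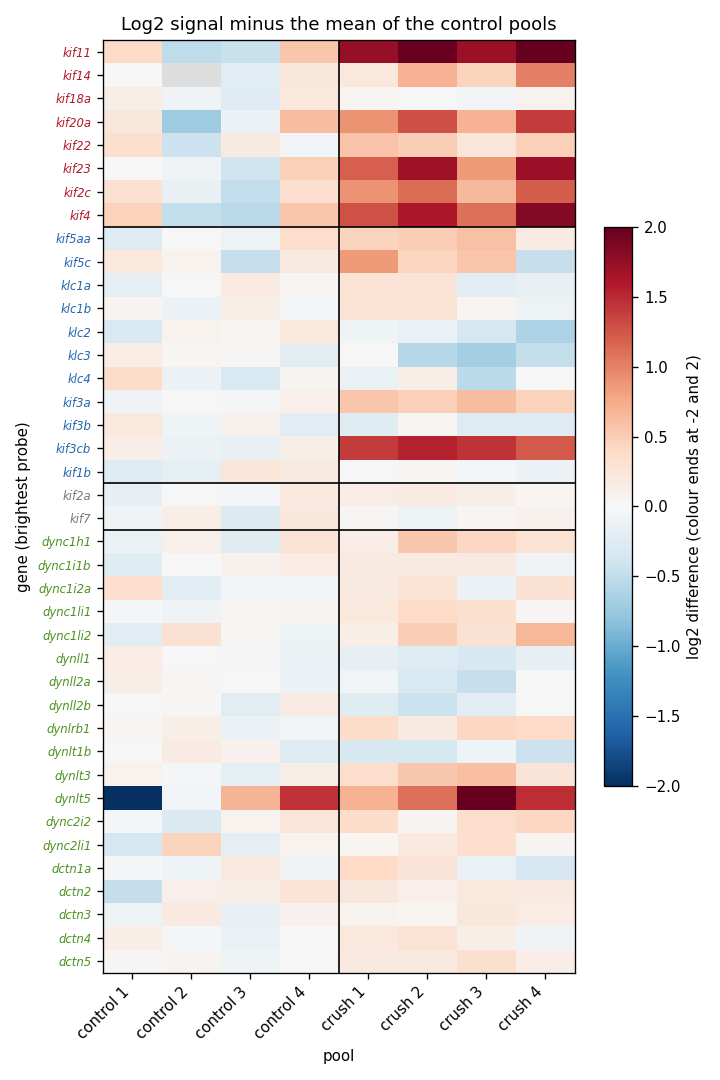
Log2 signal of each motor gene in each pool minus the mean of its control pools, with red for higher and blue for lower, colours ending at 2 log2 units either way, and grey for the 1 missing value. In their lowest crush pool, kif11, kif3cb, kif4, kif23 and kif2c still lie between 0.65 and 1.71 log2 units above the control mean, with kif2c the lowest. kif18a stays near white, and dynlt5 varies widely within the control pools.

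More than 1 probe read 30 of the 40 genes, and the probes had the same sign in 22 and both signs in 8, namely kif4, kif2c, kif2a, klc1a, klc4, dynlt1b, dync2i2 and dctn4. Of the 86 probes, 7 passed, all upwards, where 1.89% of all probes passed upwards. Both probes of kif3cb passed, whereas the dimmer probes of kif23, kif4 and kif2c did not. kif23 had log2 fold changes of 0.88, 0.31 and 0.07 at its other probes, kif4 of 0.74 and -0.18, and kif2c of 0.92 and -0.21. Many of these probes were near background: of the 20 probes of mitotic kinesins 7 were well above it on all arrays and 4 on none, against 38 of the 39 probes of dynein and dynactin on all arrays. With the mean over all probes of a gene in place of its brightest, 2 of the 40 genes rose, kif11 and kif3cb.

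**Figure D5:**
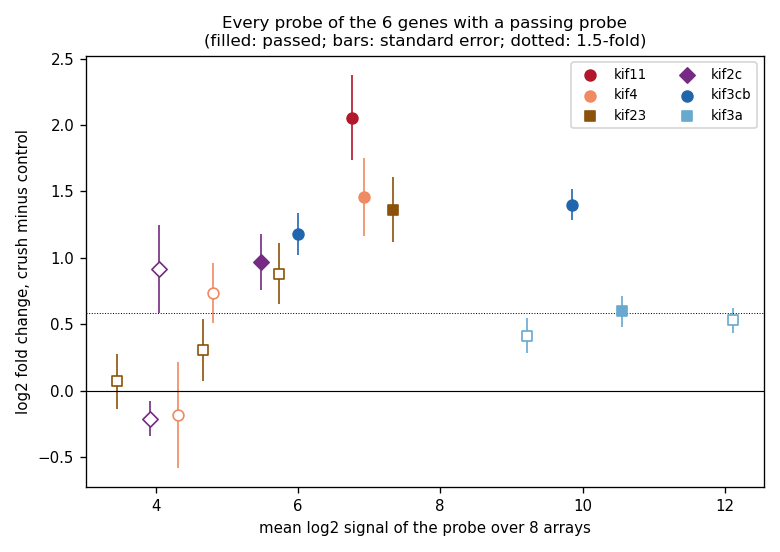
Log2 fold change of every probe of kif11, kif4, kif23, kif2c, kif3cb and kif3a against the mean log2 signal of the probe over the 8 arrays, with the standard error as a bar and filled symbols for probes that passed. The 4 lowest values of kif23, kif4 and kif2c, between -0.21 and 0.31, all belong to probes with a mean signal under 5. A probe of kif4 (mean signal 4.81) and a probe of kif2c (4.05) are also under 5 and have higher values, 0.74 and 0.92.

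The calls differed in how far they rested on single pools. kif11 and kif3cb passed without any one of the 8 pools, with limma adjusted p from 0.0164 to 0.0499 and from 0.00209 to 0.00664, respectively. kif23 passed in 2 of the 8, without control pool 4 or crush pool 3, kif4 in 2, without control pool 1 or control pool 4, and kif2c in 1, without control pool 4. The adjusted p otherwise reached 0.0816 for kif23, 0.110 for kif4 and 0.131 for kif2c, and the log2 fold changes stayed between 0.80 and 1.64. Without control pool 4, 6 of the 40 genes rose, with kif20a as the sixth.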

How the data were processed

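Each pool's group and number come from its title. The scanner files were used as deposited by the authors, and give a median Cy3 intensity per spot, a median local background and a processed signal of the scanner software, an intensity. The log2 values that the authors deposited were recovered as the output of normexp with offset 16 followed by quantile normalisation of 45220 spots, controls included. The submitters' processing notes name limma without a version.

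Here normexp (offset 0) was applied to the median intensities, control spots were then removed and outlier spots were set to missing. The intensities of 43803 spots were quantile normalised, turned into log2 values and averaged over 43603 probes. Two-sided tests of 43601 probes, each with 2 or more values per group, used lmFit and eBayes of limma 3.58.1 (R 4.3.3), without covariates, with Benjamini-Hochberg adjustment. No filter on dim probes was applied. A correction of mean signals was planned, but the files give medians. Only the limma fit was tested on simulated log2 values, with changes placed in probes above the median signal. Background correction, normalisation and the recovery of changes in dim probes were not part of that test. RefSeq accessions, read without versions, gave a symbol to 25598 of 27369 probes that carry one, through a gene table of assembly GRCz12tu. The array was designed on an older assembly, so no coordinates were used. Nothing in the labels says that probes of close paralogues are specific. The labels give each pool as a separate sample, and p-values measure the spread between the pools. The number of arrays limits the precision. Python 3.11.15 with scipy 1.17.1 ran the permutation tests, and pandas 2.3.3, numpy 2.4.6 and matplotlib 3.10.9 made tables and plots.

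The genes described, the lists of partners (motor adaptors and dynein regulators, microtubule-associated proteins, spindle and cytokinesis partners, axonemal dyneins and intraflagellar transport) and the markers of cell types were chosen with earlier results of these data known, so that counts over them are descriptions. All 40 motor genes are described. Their role groups were likewise chosen with earlier results known, so counts and medians over these groups are descriptions. Values in every pool are given for the genes that passed, and of each partner list at most 5 genes that passed are named. The choice of other motor genes for pool values, of kifap3b and of the ganglion cell and dividing-cell markers named was made with their values known. Alternatives were offsets of 16 and 50, median scaling, the processed signal at the 75th percentile, the deposited log2 values, a filter on dim probes, the mean of all probes, a log2 fold change of 1, the replicate number as a block and leaving out each pool.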

Additional observations from a re-analysis of the deposited data

Results flagged for a closer look

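The pools of each group were checked for the 40 genes and for the means of 3 roles, except the control pools of kif14, where 1 value was missing. Of these 85 sets of 4 pools, 3 held 1 pool far from the rest by Dixon's criterion, which chance meets in about 1 of 20 sets. dync1i1b, an intermediate chain of dynein-1, was at 10.47 in crush pool 4, where the other crush pools all stood at 10.71. dync2i2, an intermediate chain of dynein-2, was at 7.998 in crush pool 2, and the others ran from 8.30 to 8.36. kif3b, a kinesin-2 chain, was at 7.53 in crush pool 2, and the others ran from 7.23 to 7.25.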

How the results depend on the processing

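The number of motor genes that rose was 5, with 4 to 5 under the offsets of 16 and 50, median scaling, the processed signal, the deposited values, the filter on dim probes and a log2 threshold of 1, and none fell under any alternative. It was 2 with the mean of all probes and 2 to 6 without single pools, where fewer samples were fitted. kif11 and kif3cb rose under every alternative. Under median scaling kif3a stood in place of kif2c, and with the processed signal kif20a and kif3a in place of kif2c and kif4. The median log2 fold change of the mitotic kinesins, 1.02, was 0.41 at the offset of 50 and 0.61 with the mean of all probes, and 0.88 to 1.18 without single pools. That of the transport kinesins, 0.04, turned to -0.039 with the processed signal, which moved the median of all probes from -0.01 to -0.12, and ran from -0.031 to 0.13 without single pools, below 0 without control pool 1 (-0.013), crush pool 1 (-0.031) or crush pool 2 (-0.030). That of dynein and dynactin, 0.16, was 0.24 under median scaling. The cause was not tested for the settings of the signal. The log2 fold change of kif1b, -0.03, ran from -0.11 to 0.057 without single pools, above 0 without control pool 3 (0.057), control pool 4 (0.034) or crush pool 4 (0.0052). That of kif7, 0.01, was -0.016 with the processed signal and ran from -0.082 to 0.084 without single pools, below 0 without control pool 1 (-0.014), control pool 3 (-0.082) or crush pool 4 (-0.013).

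In the labels, same-numbered pools share only a number. Correlations of their deviations were 0.01, -0.12, 0.02 and 0.18 for numbers 1 to 4. The best correlation with a pool of another number was 0.09, 0.07, 0.18 and -0.01, so only number 4 was closest to its own number. With the replicate block, 3 motor genes rose, kif11, kif23 and kif3cb, and kif4 (limma adjusted p = 0.0532) and kif2c (0.0555) did not pass. Of the probes that passed, 68.7% were higher after quantile normalisation, 49.4% under median scaling and 44.7% with the processed signal. Calls of dim genes are limited by signal over background, since 5 of the 40 genes were not above background on all arrays.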

Other observations

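Neighbouring families that share the microtubule were measured beside the motors. Of 23 measured microtubule-associated and end-binding proteins, of 53 listed, none passed in limma, with a median log2 fold change of -0.02 and 3 higher and 3 lower at an unadjusted p under 0.05. Of 15 axonemal dyneins and their assembly factors, which drive motile cilia and sperm tails, 1 rose, the light intermediate chain dnali1, with a median of 0.10. Over all genes, 2.47% passed upwards. dnali1 was at 5.72, 5.25, 5.69 and 5.90 in the control pools and at 6.23, 6.41, 6.57 and 6.62 in the crush pools, without overlap, a 1.76-fold rise (log2 fold change 0.82, SE 0.16, limma adjusted p = 0.0335). None of 13 genes of intraflagellar transport, the cargo trains of kinesin-2 and dynein-2 in cilia, passed, with a median of 0.00, a range from -0.30 to 0.31, and 1 higher and 1 lower at an unadjusted p under 0.05. The kinesin-2 genes kif3cb and kif3a, with log2 fold changes of 1.40 and 0.53, lay above that range, and kif3b, with -0.18, lay within it.

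Of the other retinal cell types, no marker passed among 14 of bipolar, amacrine and horizontal cells (median log2 fold change -0.21). Nor did any of 18 markers of rods and cones (-0.21) and 11 of Müller glia (-0.02). Outside the retinal cell types, none passed of 7 markers of red blood cells (-0.47) and 7 of optic nerve oligodendrocytes (0.12). At an unadjusted p under 0.05 and in the same order, 0, 0, 1, 0 and 0 were higher and 1, 4, 1, 3 and 0 were lower.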
